A study of Mus musculus with 6 samples.

Results

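The genes described here encode the enzymes that copy the nuclear genome: the catalytic and accessory subunits of DNA polymerase alpha (*Pola1*, *Pola2*), the primase bound to it (*Prim1*, *Prim2*), subunits of polymerase delta (*Pold1*, *Pold2*, *Pold3*) and polymerase epsilon (*Pole*, *Pole2*), and the sliding clamp (*Pcna*). They were taken by symbol from the table of nascent transcription, in which all 10 were found among 14546 genes, and *Pola2* was set against the subunits it works with. The members were chosen by function, with the differences between genotypes of their TSS and gene body values in view. Those differences are therefore given below as a description, without a p-value for any member. Counts of members called, or at an unadjusted p under 0.05, only show how calls depend on the setting. They are no evidence of a difference, and nothing is read from them.

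Nascent transcription was measured by PRO-seq, a nuclear run-on method that labels RNA at the 3′ end held by engaged RNA polymerase, in nuclei of proliferating mouse muscle stem cells (MuSCs). The 3 *Ctrl* libraries carried the label Pax7CreERT/Suv4-20h1WT and the 3 *Kmt5b sKO* libraries the label Pax7CreERT/Suv4-20h1KO, so that both groups had the tamoxifen-inducible Cre driven from *Pax7*, and they differed in *Kmt5b* (Suv4-20h1), which encodes a histone H4 lysine methyltransferase. MuSCs were purified with magnetic beads from limb and trunk muscles and grown in culture, which makes the libraries a measure of cultured cells rather than of resting MuSCs in muscle, and the methods count the libraries of a genotype as biological replicates. The labels give no age of the mice.

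DNA polymerase alpha and primase form 1 complex that lays down a short RNA-DNA primer at the start of the leading strand and of every Okazaki fragment. The clamp loader then places PCNA, a ring that slides along DNA, and polymerase epsilon extends the leading strand while polymerase delta extends the lagging strand. Many of these genes are activated by E2F factors when a cell enters S-phase, and MuSCs that stop dividing and differentiate turn them down.

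The table gives 2 regions for 1 isoform per gene, each counted on the sense strand. The TSS region is the first 400 nt of the isoform and is given as reads scaled to library depth (RPM), whereas the gene body runs from there to the transcript end and is given per length as TPM. The pausing index is the TSS value divided by the gene body value, which are on different scales, so an index is read against that of other genes. Genotypes were compared with limma on log2(value + 0.5) for 12877 genes whose mean reached 0.5 for the TSS region and also for the gene body (12073 genes for the index), and all 10 members passed this filter. Calls were made where the p-value adjusted by Benjamini-Hochberg was under 0.1. Differences are given as *Kmt5b sKO* minus *Ctrl*, values follow the order of replicates 1, 2 and 3, and "apart" means that the 3 values of one genotype did not overlap with the 3 of the other.

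Reads in listed genes ranged from 926904 to 3246052 per library for TSS regions and from 7425419 to 16249129 for gene bodies, with *Kmt5b sKO* replicate 2 the shallowest in both. *Kmt5b* was not lower in the libraries labelled *Kmt5b sKO*: its gene body had 30.6, 35.4 and 38.5 TPM in *Ctrl* against 37.8, 35 and 42.6 TPM in *Kmt5b sKO*. For these libraries the genotype therefore rests on the labels, and which of its exons the deletion removes was not analysed here. In cultured MuSCs of this genotype, the study reports a strong loss of the histone mark that the enzyme makes, by western blot and staining. The related methyltransferase gene *Kmt5c* had 33.6, 26.5 and 12.6 TPM in *Ctrl* against 22.4, 15.1 and 15.3 TPM in *Kmt5b sKO*, and the groups overlapped. All 10 MuSC markers were listed, with a summed gene body of 1576 to 2312 TPM in *Ctrl* and 2082 to 2793 TPM in *Kmt5b sKO*, led by *Myod1* at 855 to 1328 TPM over the 6 libraries. Among immune markers, *Ptprc*, *Adgre1* and *Csf1r* were not listed and *Cd68* made up nearly all of a sum of 223 to 427 TPM. The endothelial and fibro-adipogenic markers each summed to less than 10 TPM in every library. The 5 Schwann and smooth muscle cell markers summed to 10.5 to 11.3 TPM in *Ctrl* and 17 to 24.9 TPM in *Kmt5b sKO*, and the 6 markers of mature fibres to 110 to 298 and 274 to 589 TPM. The part of these cells in the results below was not tested.

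In control cells the members differed widely in level. *Pcna* stood first with a gene body of 86.4 ± 9.4 TPM (SD, n = 3), above 94.9% of the genes tested, and its lowest *Ctrl* library (75.9 TPM) lay above the highest of *Pola2*, the next in order (35.4 TPM). *Pola2* (29.3 ± 7.1 TPM), *Pold1* (17.5 ± 5.2 TPM), *Pold3* (15.9 ± 1.7 TPM), *Prim1* (15.9 ± 3.0 TPM), *Pold2* (15.2 ± 3.1 TPM) and *Pole* (13.5 ± 1.5 TPM) followed, and no neighbours among these 6 were apart. *Pole2* was lower than *Pole* at 10.1 ± 0.70 TPM, with no overlap, and the order ended with *Pola1* (5.77 ± 0.29 TPM) and *Prim2* (5.62 ± 0.12 TPM), which overlapped each other and lay below *Pole2*. Thus, the 4 genes of 1 complex spanned the order from the second to the last place, with the nascent gene body of the accessory subunit *Pola2* higher than that of the catalytic subunit *Pola1* in each *Ctrl* library.

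The pausing index of the same genes in *Ctrl* ranged from 0.71 ± 0.28 for *Prim2* to 5.59 ± 0.94 for *Pole*. The median over all genes tested was 1.47 to 1.54 in the 3 libraries. *Pole* therefore had a higher read density in the first 400 nt, relative to that over its gene body, than most genes. The index compares densities and is not the share of a gene's polymerase in that region. *Pola1* (1.05 ± 0.098), *Pola2* (0.996 ± 0.14) and *Pold3* (0.966 ± 0.069) lay below that median in every *Ctrl* library, and *Pold1* and *Pold2* (both near 2.3) above it.

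*Pola2*, which encodes the accessory B subunit that tethers the catalytic subunit to primase, lies at 19:5940543-5964206 on the minus strand (GRCm38, 18 exons) with no other annotated gene overlapping it on that strand. *Pola1*, the catalytic subunit, spans X:93304767-93632155 on the minus strand (37 exons). The 250 bases before the start sites of both genes are shown because these 2 subunits of 1 enzyme differ in the gene body results that follow. They are RefSeq sequences of GRCm38.p6 on the gene's own strand, at X:93632156-93632405 and 19:5964207-5964456, and capitals mark an E2F motif (TTTCGCGC, TTTGGCGC, TTTCCCGC or TTTGCCGC on either strand).
Pola1: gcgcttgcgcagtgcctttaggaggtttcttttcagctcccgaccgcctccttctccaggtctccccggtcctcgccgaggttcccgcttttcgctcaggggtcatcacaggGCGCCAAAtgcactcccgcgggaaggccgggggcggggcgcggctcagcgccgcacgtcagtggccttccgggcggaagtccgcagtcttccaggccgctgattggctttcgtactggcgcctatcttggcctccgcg
Pola2: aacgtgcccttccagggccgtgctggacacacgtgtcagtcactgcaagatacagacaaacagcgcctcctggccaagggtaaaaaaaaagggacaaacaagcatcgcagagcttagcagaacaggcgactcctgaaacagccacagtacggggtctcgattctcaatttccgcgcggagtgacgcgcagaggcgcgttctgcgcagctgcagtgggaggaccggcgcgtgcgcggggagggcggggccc
The *Pola1* window held 1 such match, GCGCCAAA on the printed strand, 138 bases before the start site, and the *Pola2* window held none. Promoters of 300 bases (250 before and 50 after the start) were given for 8 of the 10 members, all but *Prim2* and *Pole*. The E2F letters were found in 4 of these 8, those of *Pola1*, *Pold1*, *Pold3* and *Pole2*, and in 2.27% of 32851 promoters of the same length from genes of all kinds. No match was found for *Pola2*, *Pold2*, *Prim1* and *Pcna*, whose gene body log2 differences given below are 0.09, -0.08, -1.20 and -1.23. Only exact letters were counted, so a stretch that differs by 1 letter is no match. The *Pola2* promoter holds such a stretch after its start site (TTTGGCGG), and the *Prim1* promoter holds one before its start site (GTTCCCGC). Near matches were not counted in the other promoters. A relation of the motif to the differences was not tested. In *Pold1* (GCGGGAAA), *Pold3* (TTTCCCGC) and *Pole2* (GCGCCAAA) the match lay 39, 17 and 10 bases after the start site. GC boxes (GGGCGG, either strand) were found in promoters of 7 members, *Pola2* included, against 35.7% of all promoters, and CCAAT boxes (CCAAT, either strand) in 4, those of *Pola1*, *Prim1*, *Pold2* and *Pcna*, against 37.4%. The cell cycle element CHR (TTTGAA or TTCGAA, either strand), found in 19.2% of all promoters, matched only in the second of 2 *Pold2* promoters. These matches describe letters in a window and not bound sites.

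Across the gene bodies, most of the replicative polymerase genes were lower in *Kmt5b sKO* MuSCs and 2 accessory subunits were not. Of the 10 members, 9 had a log2 difference below 0 (46.4% of all genes tested), 8 were apart and lower (9.44%) and 6 were called, all of them lower: *Pcna*, *Prim1*, *Pole*, *Pola1*, *Pole2* and *Pold3* (1.34% of all genes were called lower, 1.62% higher and 2.95% in either direction). The median log2 difference over the members was -0.80 against 0.022 over all genes, with quartiles of -0.15 and 0.24. When reads were instead scaled to all uniquely mapped reads, the median of all genes moved to -1.06 and *Pola2* turned from 0.09 to -1.02. Of the 10 members, 9, all but *Pola2*, were still below that median. The shift of all genes may also hold differences between libraries in duplicates removed and in mapped reads outside the listed genes. It is not read as a change in the transcription of all genes. The calls were sensitive to single libraries: with limma, none of the genes tested was called once *Ctrl* replicate 1 or any single *Kmt5b sKO* library was left out (8 members and 1424 to 1762 genes had an unadjusted p under 0.05 in each of these 4 fits), and 2 members were called without *Ctrl* replicate 2 and 7 without *Ctrl* replicate 3.

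**Figure D1:**
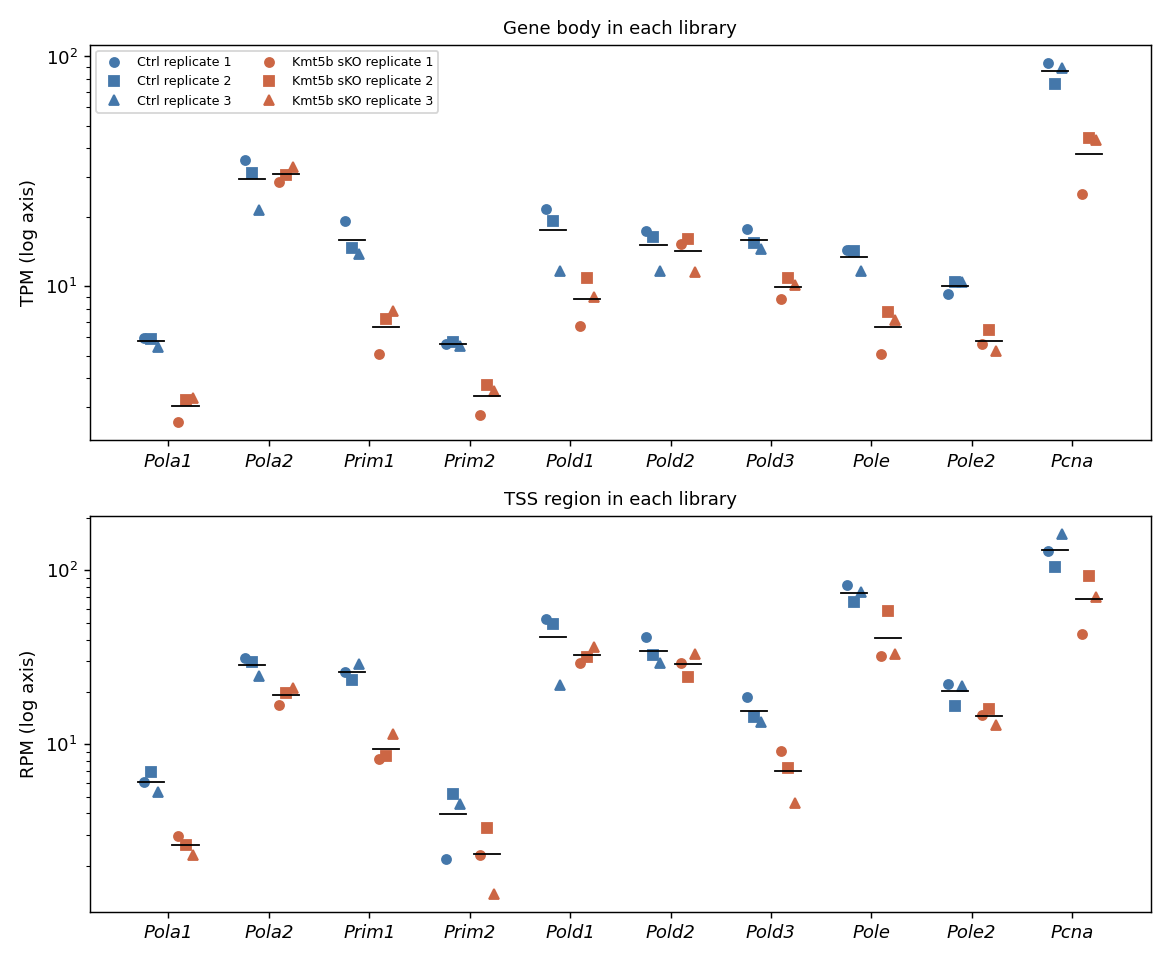
Gene body level in TPM (upper panel) and TSS region level in RPM (lower panel) of the 10 genes in each of the 6 libraries, on log axes, with blue for *Ctrl*, red for *Kmt5b sKO*, a marker shape per replicate and a bar at the mean of 3. In the gene body the red points lie below all blue points in 8 genes, whereas those of *Pola2* and *Pold2* overlap with the blue ones.

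The partners of *Pola2* in the primer-making complex were among the members with lower gene bodies. *Prim1*, the catalytic subunit of primase, had 19.3, 14.6 and 13.8 TPM in *Ctrl* against 5.06, 7.20 and 7.78 TPM in *Kmt5b sKO* (68 to 407 reads), a log2 difference of -1.20 (SE 0.21). *Pola1* had 5.95, 5.93 and 5.44 TPM in *Ctrl* against 2.56, 3.21 and 3.28 TPM in *Kmt5b sKO* (688 to 2846 reads), a difference of -0.84 (SE 0.17). *Prim2*, the large primase subunit, had 5.62, 5.74 and 5.50 TPM in *Ctrl* against 2.76, 3.73 and 3.50 TPM in *Kmt5b sKO*, a difference of -0.68 (SE 0.17) that was not called. All 3 genes had every *Kmt5b sKO* library below every *Ctrl* library, and *Kmt5b sKO* replicate 1 was the lowest in each. *Pola1* lies on the X chromosome, which the study left out of its own comparison. Its long gene body overlaps a small RNA gene (Gm23557) on the same strand.

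*Pola2* itself had 35.4, 31.1 and 21.5 TPM in *Ctrl* against 28.6, 30.4 and 33.2 TPM in *Kmt5b sKO* (463 to 1205 reads), a log2 difference of 0.09 (SE 0.20). The 3 *Kmt5b sKO* libraries lay between the lowest and the highest of the *Ctrl* libraries, and 60.0% of all genes tested had a lower difference. *Ctrl* replicate 3 was the low library, 0.62 below the mean of the other two on the log2 scale. Leaving out 1 library at a time moved the difference between -0.11 and 0.24, so its sign is not settled. The genes whose 6 gene body values ran closest to those of *Pola2*, each centred on its *Ctrl* mean, were *Rnf40*, *Ppp5c* and *Nadsyn1*, at root mean square distances of 0.027, 0.037 and 0.058 on the log2 scale among 12876 genes.

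Set against its partners within each library, which removes any scaling factor of a library apart from the pseudocount, *Pola2* exceeded the mean log2 gene body value of *Pola1*, *Prim1* and *Prim2* by 1.96, 1.90 and 1.46 in *Ctrl* against by 2.93, 2.64 and 2.75 in *Kmt5b sKO*. The groups were apart. They had means of 1.77 ± 0.27 and 2.77 ± 0.15 (SD, n = 3). The mean of the partners went from 3.09 ± 0.10 to 2.19 ± 0.22 log2 units, while the values of *Pola2* overlapped. Leaving out 1 library at a time gave a gap between the genotypes of 0.84 to 1.09, and taking the 9 other members as partners gave 0.91. Because the rule compares *Pola2* with its partners for this pattern, the gap is a description of these libraries.

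In the TSS region the contrast between *Pola2* and its partners was smaller. *Pola2* had 31.2, 29.9 and 24.6 RPM in *Ctrl* against 16.7, 19.8 and 21.2 RPM in *Kmt5b sKO* (30 to 130 reads), a log2 difference of -0.56 (SE 0.27), and the groups were apart in this region although not in the gene body. *Pola2* exceeded the mean of its partners by 2.04, 1.60 and 1.40 log2 units in *Ctrl* against 1.98, 2.09 and 2.44 in *Kmt5b sKO*, and these values overlapped. *Prim1* had 25.9, 23.6 and 28.8 RPM in *Ctrl* against 8.19, 8.58 and 11.5 RPM in *Kmt5b sKO*, the lowest TSS difference of the members at -1.43 (SE 0.31), and was called. *Pola1* (6.05, 6.89 and 5.30 RPM against 2.95, 2.64 and 2.30 RPM) was apart on only 4 to 28 reads, and *Prim2* (2.2, 5.17 and 4.55 RPM against 2.29, 3.30 and 1.38 RPM) overlapped on 3 to 24 reads, a depth at which a difference of its size could not be resolved.

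**Figure D2:**
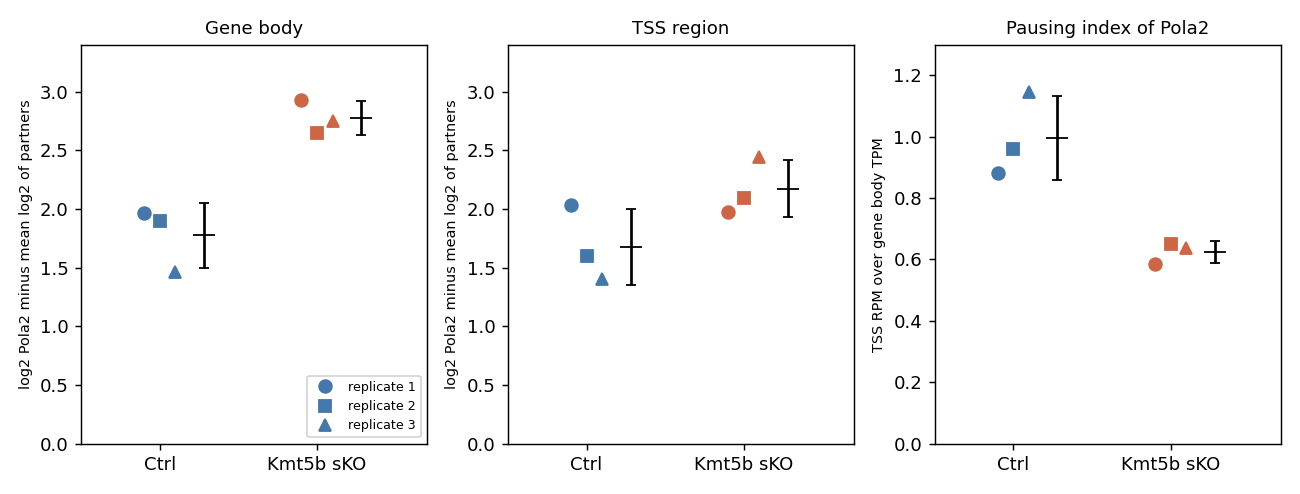
*Pola2* minus the mean of *Pola1*, *Prim1* and *Prim2* on the log2 scale in the gene body (left) and the TSS region (middle), and the pausing index of *Pola2* (right), for 3 *Ctrl* (blue) and 3 *Kmt5b sKO* (red) libraries with the mean and SD beside them. The genotypes are apart in the gene body (1.46 to 1.96 against 2.64 to 2.93) and in the pausing index, and overlap in the TSS region.

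With a lower TSS value and a similar gene body, the pausing index of *Pola2* was 0.88, 0.96 and 1.15 in *Ctrl* against 0.59, 0.65 and 0.64 in *Kmt5b sKO*. Its group means were 0.996 ± 0.14 and 0.625 ± 0.035 (SD, n = 3), a log2 difference of -0.67 (SE 0.26), and 3.66% of genes tested had a lower one. *Pola2* was the only member whose index was apart and lower, as were 3.12% of all genes. The index of *Pola1* (1.02, 1.16 and 0.97 against 1.15, 0.82 and 0.70), *Prim1* (1.34, 1.61 and 2.09 against 1.62, 1.19 and 1.48) and *Prim2* (0.39, 0.90 and 0.83 against 0.83, 0.88 and 0.39) overlapped. limma called the index of 0 members and of 0 genes in all, with 2 members and 471 genes at an unadjusted p under 0.05.

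Polymerase delta, which extends Okazaki fragments, was not uniform across its subunits. *Pold1*, the catalytic subunit (7:44532746-44548847, minus strand), had a gene body of 21.6, 19.2 and 11.7 TPM in *Ctrl* against 6.70, 10.9 and 8.95 TPM in *Kmt5b sKO*, a log2 difference of -0.93 (SE 0.27) with the groups apart but not called. *Pold3*, the subunit that binds PCNA, had 17.8, 15.4 and 14.6 TPM in *Ctrl* against 8.78, 10.9 and 10.1 TPM in *Kmt5b sKO*, a difference of -0.66 (SE 0.15). The groups of *Pold3* were apart. *Pold2*, the accessory subunit that joins *Pold1* and *Pold3* (11:5872180-5878292, minus strand), had 17.5, 16.5 and 11.6 TPM in *Ctrl* against 15.3, 16 and 11.6 TPM in *Kmt5b sKO*, a difference of -0.08 (SE 0.20) that changed sign when libraries were left out in turn (-0.25 to 0.06). Thus, *Pold2* was the second member besides *Pola2* whose gene body groups overlapped, on a short body of 5712 nt with 60 to 146 reads.

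The TSS regions of these subunits ran differently. *Pold1* had 52.3, 49.4 and 21.8 RPM in *Ctrl* against 29.2, 31.7 and 36.3 RPM in *Kmt5b sKO*, a log2 difference of -0.25 (SE 0.30), with *Ctrl* replicate 3 below all the others. Its pausing index was 2.42, 2.57 and 1.86 in *Ctrl* against 4.35, 2.91 and 4.06 in *Kmt5b sKO*, a difference of 0.72 (SE 0.26), and 96.1% of genes had a lower one. *Pold1* was therefore apart in the direction opposite to *Pola2*. *Pold3* had 18.6, 14.4 and 13.5 RPM in *Ctrl* against 9.18, 7.26 and 4.6 RPM in *Kmt5b sKO* (10 to 77 reads), apart at -1.12 (SE 0.37), and its index overlapped. *Pold2* had 41.6, 32.8 and 29.4 RPM against 29.5, 24.4 and 33.1 RPM, and overlapped in the TSS region and in the index as well.

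Both subunits of polymerase epsilon, the leading strand enzyme, were lower in the gene body. *Pole*, its catalytic subunit (5:110286306-110337474, plus strand, 49 exons), had 14.3, 14.3 and 11.7 TPM in *Ctrl* against 5.07, 7.70 and 7.12 TPM in *Kmt5b sKO* (-0.98, SE 0.19). *Pole2*, its second subunit (12:69201773-69228195, minus strand), had 9.25, 10.4 and 10.5 TPM in *Ctrl* against 5.64, 6.45 and 5.24 TPM in *Kmt5b sKO* (-0.75, SE 0.15). In the TSS region *Pole* had 82.3, 65.5 and 75.6 RPM against 32.1, 58.1 and 33.1 RPM (-0.90, SE 0.25) and *Pole2* 22.3, 16.7 and 21.6 RPM against 14.8, 15.9 and 12.9 RPM (-0.46, SE 0.30), both apart and neither called. The index of *Pole* overlapped and that of *Pole2* was apart and higher in *Kmt5b sKO* (2.41, 1.60 and 2.06 against 2.62, 2.46 and 2.46, a log2 difference of 0.33, SE 0.24), which with *Pold1* made 2 members apart and higher (5.92% of all genes). *Pole2* overlaps the coding gene Gm49384 on its strand and *Pole* a pseudogene and a small nucleolar RNA gene, whose reads could not be separated here.

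*Pcna*, the clamp (2:132249162-132253314, minus strand, 6 exons), lay with *Prim1* at the lower end of the gene body differences. Which of the 2 was lower depended on the setting (*Prim1* with edgeR, with a pseudocount of 0.1, and without *Ctrl* replicate 3 or *Kmt5b sKO* replicate 1). It had 94.0, 75.9 and 89.3 TPM in *Ctrl* against 25.2, 44.4 and 43.3 TPM in *Kmt5b sKO*, a log2 difference of -1.23 (SE 0.23), and only 0.443% of all genes tested had a lower one. In the TSS region it had 129.3, 104.0 and 162.3 RPM in *Ctrl* against 42.9, 92.5 and 69.9 RPM in *Kmt5b sKO*, a difference of -0.99 (SE 0.26). Every *Kmt5b sKO* library was below every *Ctrl* library in both regions, and the pausing index overlapped (1.37, 1.37 and 1.82 against 1.71, 2.08 and 1.61). *Pcna* has annotated processed pseudogenes, and the alignment kept 1 random position for a read that fitted several, so its level is uncertain to that extent.

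Over all TSS regions, 10 of the 10 members had a log2 difference below 0 (41.9% of genes), 7 were apart and lower (5.34%) and 2, *Pcna* and *Prim1*, were called lower (0.699% of genes lower, 0.932% higher and 1.63% in either direction). The median of the members was -0.77 against 0.080 over all genes, whose quartiles were -0.17 and 0.34. Scaling to uniquely mapped reads moved the median of all genes to -1.05, and all 10 members were below it. The number of members called ranged from 0 to 3 when libraries were left out in turn, being 0 without *Ctrl* replicate 1 or *Kmt5b sKO* replicate 1 (unadjusted p under 0.05 for 4 and 5 members, and for 1029 and 1009 genes), 1 without *Ctrl* replicate 3 or *Kmt5b sKO* replicate 3, and 3 without *Ctrl* replicate 2 or *Kmt5b sKO* replicate 2. edgeR on the reads recovered from the values called 3 members here and 8 in the gene body.

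**Figure D3:**
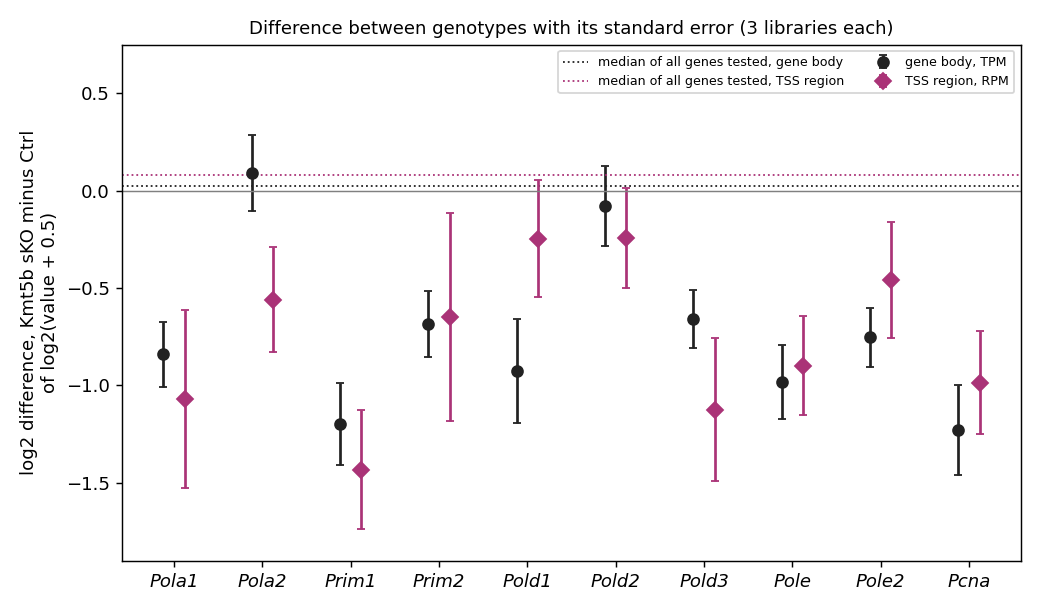
Difference between genotypes (*Kmt5b sKO* minus *Ctrl*) of log2(value + 0.5) with its standard error, for the gene body (black circles) and the TSS region (purple diamonds) of each gene, with dotted lines at the median of all genes tested. In the gene body *Pola2* (0.09) and *Pold2* (-0.08) sit near the line while the other genes lie between -0.66 and -1.23, and with scaling to uniquely mapped reads *Pola2* lies at -1.02, next to a median of -1.06.

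The low gene body of *Pola2*, *Pold1* and *Pold2* in *Ctrl* replicate 3 was shared in part by genes of like base composition. Relative to the mean of the other *Ctrl* libraries, replicate 3 was lower by a median of 0.38 log2 units in the group with the highest GC content of the gene body among 4 groups of 3218 genes, which holds *Pold1* (56.4% GC) and *Pold2* (53.8%), and by 0.23 in the next group, which holds *Pola2* (49.98%). It was higher by 0.034 in the group with the lowest GC content, which holds *Pola1* (37.6%) and *Pcna* (40.7%). The differences of *Pold1*, *Pold2* and *Pola2* in that library were -0.77, -0.52 and -0.62, beyond the medians of their groups. Lower ones were found for 9.64%, 20.0% and 15.3% of the genes tested. The 7 other members had -0.28 to 0.09. Median differences between the genotypes were closer together, from -0.0079 in the lowest to 0.056 in the highest group. Across the 10 members, the GC content of the gene body and the difference between genotypes had a Spearman rho of 0.31 and a Pearson r of 0.49, over genes that share libraries and depth. The part of base composition in the level of *Pola2* was not tested.

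The members fell within a wider set of genes of the replication fork, a list of 33 clamp loader, helicase, Okazaki fragment and checkpoint partners, some of which were known from earlier results of these data. Their median log2 difference was -0.66 in the gene body and -0.55 in the TSS region. In each, 28 of 33 were below 0 (46.4% and 41.9% of all genes). In the gene body 19 were apart and lower (9.44% of all genes) and 6 were called lower (1.34%). In the TSS region 14 were apart and lower (5.34%) and 3 were called lower (0.699%). In both, 0 were called higher (1.62% and 0.932%). In the gene body, limma called 0 of them, and 0 of all genes, without *Ctrl* replicate 1 or any single *Kmt5b sKO* library. In these fits 16 to 20 had an unadjusted p under 0.05, as did 1424 to 1762 of all genes. It called 2 without *Ctrl* replicate 2 and 16 without *Ctrl* replicate 3 (285 and 852 of all genes). In the TSS region it called 0 to 5 when libraries were left out in turn (2 to 409 of all genes). It called 0 there without *Ctrl* replicate 1 (5 at an unadjusted p under 0.05, against 1029 of all genes). edgeR called 11 and 4 (780 and 279 of all genes). Scaled to uniquely mapped reads, all 33 were below 0, and 28 and 29 of them below the median of all genes.

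The 6 called in the gene body have different roles at the fork. *Lig1*, the ligase that seals Okazaki fragments, had 14.5, 13 and 10.4 TPM in *Ctrl* against 3.97, 5.97 and 5.60 TPM in *Kmt5b sKO* (-1.22, SE 0.20). *Fen1*, the nuclease that trims their flaps, had 17.7, 20.9 and 13.5 TPM in *Ctrl* against 8.99, 8.32 and 9.28 TPM in *Kmt5b sKO* (-0.91, SE 0.18). *Gins1*, a subunit of the replicative helicase, went from 8.40 ± 0.74 to 3.56 ± 0.45 TPM, and *Wdhd1*, which couples polymerase alpha to the helicase, from 13 ± 1.8 to 6.42 ± 1.8 TPM (SD, n = 3). *Atad5*, which unloads PCNA, went from 10.2 ± 0.94 to 5.92 ± 0.36 TPM and *Rnaseh2b*, of the enzyme that removes ribonucleotides from DNA, from 9.39 ± 0.36 to 5.23 ± 0.34 TPM. These 6 genes had every *Kmt5b sKO* library below every *Ctrl* library. The 3 called in the TSS region were *Pclaf*, a PCNA-binding factor (62.0 ± 10 to 18.4 ± 7.1 RPM, log2 difference -1.79), *Clspn*, a checkpoint mediator (62.0 ± 18 to 22.8 ± 13 RPM, -1.60), and *Rpa2*, of the single-strand binding protein (50.8 ± 7.7 to 25.4 ± 0.35 RPM, -0.98).

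The small subunits of polymerases delta and epsilon, which are not among the members, did not move as 1 group. *Pold4* had a gene body of 39.5, 145.8 and 141.3 TPM in *Ctrl* against 160.7, 88.3 and 122.0 TPM in *Kmt5b sKO*, with the lowest value in *Ctrl* replicate 1. *Pole3* had 34.9, 48.7 and 37.8 TPM in *Ctrl* against 14.7, 32.5 and 28 TPM in *Kmt5b sKO*, apart and lower at -0.74 (SE 0.29) but not called. *Pole4* overlapped, at 13 ± 0.67 and 12 ± 1.5 TPM.

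Genes of polymerases that do not copy the bulk of the nuclear genome, and of their accessory subunits, had medians near those of all genes. Their list includes the mitochondrial RNA polymerase. Of 16 repair, translesion and mitochondrial polymerase genes, 15 were tested, and their median log2 difference was 0.0066 in the gene body and 0.074 in the TSS region, next to the medians of all genes (also when scaled to uniquely mapped reads, 0.048 and 0.036 below those medians). *Polq*, the polymerase of end joining, was the only 1 called, in the gene body, with 7.65, 7.19 and 6.35 TPM in *Ctrl* against 2.98, 2.68 and 2.62 TPM in *Kmt5b sKO* (-1.21, SE 0.16). With *Polq*, *Polh* and *Poln* made 3 of the 15 apart and lower in the gene body (9.44% of all genes). *Polk* was the 1 gene apart and higher (1539 of 12877 genes). The log2 differences of *Polh*, *Poln* and *Polk* were -0.41 (SE 0.13), -0.54 (SE 0.16) and 0.50 (SE 0.16), and none was called. *Polb*, the base excision repair polymerase, had gene body means of 20.5 and 21.2 TPM and *Polg*, which copies mitochondrial DNA, of 28.1 and 28 TPM. Both overlapped there. The difference between this list and the members was not tested.

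**Figure D4:**
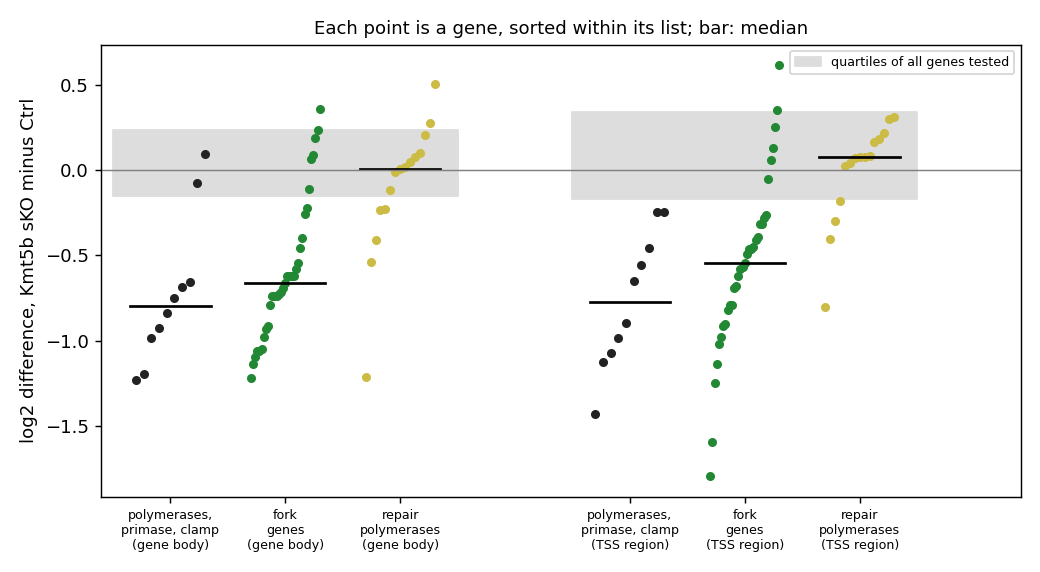
Difference between genotypes (*Kmt5b sKO* minus *Ctrl*, log2 scale) of every tested gene in the 3 lists, for the gene body (left) and the TSS region (right), sorted within each list, with a bar at the median and the quartiles of all genes in grey. Medians of the members and fork genes lie below the grey band (-0.80 and -0.66 in the gene body), and those of the repair polymerases inside it (0.0066 and 0.074). With scaling to uniquely mapped reads all these medians were below 0.

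Genes of mitosis and of muscle differentiation are given beside the members. The 20 mitosis genes had a median gene body difference of -1.04 with 12 called lower (1.34% of all genes). Their mean log2 value was 5.27, 5.09 and 4.59 in *Ctrl* against 4.0, 3.98 and 4.09 in *Kmt5b sKO*. The 30 myogenic differentiation genes had a median of 0.84 with 4 called higher (1.62% of all genes), which turned to -0.28 with scaling to uniquely mapped reads but stayed 0.78 above the median of all genes. Their mean log2 value was 7.05, 7.36 and 6.34 in *Ctrl* against 7.61, 7.37 and 8.0 in *Kmt5b sKO*. The mean of the 10 members was 4.13, 4.02 and 3.81 in *Ctrl* against 3.05, 3.43 and 3.32 in *Kmt5b sKO*, apart like that of the mitosis genes. In both lists *Ctrl* replicate 1 was highest and *Ctrl* replicate 3 lowest of the *Ctrl* libraries, while the *Kmt5b sKO* libraries differed in order. The means of the myogenic genes were apart by little in the gene body, where *Ctrl* replicate 2 and *Kmt5b sKO* replicate 2 nearly met, and overlapped in the TSS region (6.85 in *Ctrl* replicate 2 against 6.79 in *Kmt5b sKO* replicate 2). In limma, 0 genes of either list were called in the gene body without *Ctrl* replicate 1 or any single *Kmt5b sKO* library (19 mitosis and 10 to 19 myogenic genes at an unadjusted p under 0.05). The counts were 3 mitosis and 8 myogenic genes without *Ctrl* replicate 2, and 18 and 6 without *Ctrl* replicate 3. edgeR called 18 and 11, and centring each library on its median 17 and 7. In these bulk libraries a smaller share of cycling cells and less transcription per cell cannot be told apart.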

How the data were processed

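The authors used Trimmomatic 0.39 for trimming and STAR 2.6.1d for alignment to GRCm38, kept 1 random position for reads that fitted several, and removed duplicates with Picard 2.18.16. The deposited table gives, for 1 isoform per gene, sense-strand TSS values that behave as RPM and gene body values that behave as TPM. Here, whole reads were recovered from the steps between the deposited values (99.4% to 100% whole, within the rounding of the values, for TSS regions and for gene bodies under 2000 nt), which allowed edgeR 4.0.16 as an alternative. The main test was limma 3.58.1 in R 4.3.3 on log2(value + 0.5) with genotype alone, Benjamini-Hochberg adjustment over all genes and a threshold of 0.1, on all chromosomes because *Pola1* lies on X. TSS values were assumed to be TPM when the test was chosen, and the same test was used. Code was tested on simulated data. Replicate numbers did not pair the samples. Alternatives changed the pseudocount, filter, variance trend, scaling, threshold, tool or libraries. The named genes are all members, the called genes of the fork and polymerase lists with *Pold4*, *Pole3* and *Pole4*, the 3 nearest to *Pola2*, *Kmt5b* and *Kmt5c*. The genes *Polb*, *Polg*, *Polh*, *Poln* and *Polk* were added after their values were seen. The members and lists were chosen with earlier results of these data known. P-values measure the spread between 3 libraries per genotype. Gene identifiers matched the GENCODE annotation for 14528 of 14546 genes.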

Additional observations from a re-analysis of the deposited data

How the results depend on the processing

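The number of genes called depended on the setting more than the direction of the members did. In the gene body, 380 genes and 6 members were called, against 11125 and 10 with scaling to uniquely mapped reads, 780 genes with edgeR on recovered reads, 1 gene and 0 members at an adjusted p under 0.05, and 0 of both with the replicate number as a block (limma, with 1486 genes and 8 members at an unadjusted p under 0.05). Leaving out 1 library at a time gave 0 to 852 genes and 0 to 7 members. In the TSS region, 210 genes and 2 members were called, against 9091 and 10 with scaling to uniquely mapped reads, 66 and 1 at an adjusted p under 0.05, 1 member with a pseudocount of 0.1, and 0 of both without a filter on low values, without a variance trend or with the replicate block (1501, 1334 and 1176 genes and 6, 6 and 5 members at an unadjusted p under 0.05), where edgeR called 279 genes and 3 members. Leaving out 1 library at a time gave 2 to 409 genes and 0 to 3 members. The pausing index of 1 gene, no member, was called with a pseudocount of 0.5 in both regions. No member's value called in the main test changed sign under any of these settings, which describes values that were in view when the members were chosen. *Pola2* in the gene body, not called in the main test, was called at -1.02 with scaling to uniquely mapped reads, which shifted all genes. Among other values that were not called, the gene body of *Pola2* and *Pold2* and the pausing index of *Pold2*, *Pole* and *Prim2* changed sign when single libraries were left out (*Prim2* also with each library centred on its median).

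The correlation of same-numbered libraries around their group means was -0.34 to -0.16 in the gene body, -0.17 to -0.041 in the TSS region and -0.10 to -0.014 for the pausing index, so the replicate numbers were not taken as pairs, and the loss of calls under the block is no sign of a weaker difference. Of the members' values under alternatives, 361 kept direction and side of the threshold, 56 were no longer called and 19 were newly called with the same sign, 10 changed sign without being called in either setting, and 1 (*Pola2*, above) changed sign and was newly called. *Pola1* has no value on autosomes alone. The TSS regions of *Pola1* and *Prim2*, with at most 28 and 24 reads in a library, limit what can be said of their pausing.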
